A study of Mus musculus with 6 samples.

Results

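The collagen chains are the protein-coding mouse genes whose symbol is Col followed by a type number, the letter a and a chain number. There were 44 such genes among the 50686 gene identifiers counted, and all 44 were found in every count file. They were grouped by the structure that their proteins build, as 11 fibrillar chains, 9 basement membrane chains and 24 other chains. The basement membrane class held the 6 chains of type IV together with the chains of types VII, XV and XVIII. mRNA was sequenced from iPSCs of mouse gingival fibroblasts after 24 h of intermittent compressive force (ICF) and from unloaded controls, with 3 samples per group. In both groups, embryoid bodies had been exposed to retinoic acid, plated on gelatin and kept in serum-free medium, and ICF was applied at 1.5 g per square centimetre and 0.23 Hz. The labels number the samples as donors 1 to 3 in each group, whereas the methods mention independent experiments and no donors. If same-group samples were not separate cultures, the p-values measure only the technical spread between them. The strain and the sex of the mice are not given in the sources used here, and the stock cells were grown on SNL feeder cells, a fibroblast line that was removed by selective trypsin treatment.

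Collagens are secreted proteins in which α chains wind around each other into a stiff helix, and this helix requires a glycine at the head of each amino acid triplet. Fibrillar collagens such as types I, III and V pack side by side into the tensile fibrils of connective tissue, whereas type IV collagen joins into the open sheet of the basement membrane beneath epithelia and endoderm. In early embryos and embryoid bodies, the endoderm is a well-known source of type IV collagen, and type I collagen is the main product of fibroblasts.

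The division into fibrillar and basement membrane chains can be read from the coding sequences, which are shown for Col1a1 and Col4a1 because the results below are given by class. In the GENCODE M21 coding sequences on GRCm38, the codon GGN (any of the 4 glycine codons) was followed by any 2 codons in an unbroken run of repeats, and the longest run of each gene was counted. The longest run had a median of 338 repeats in the 11 fibrillar genes, with a range of 216 to 344. In the 9 basement membrane genes the median was 42 repeats and the range 30 to 75, and in the 24 other genes the median was 48.5 and the range 23 to 113. The fibrillar range lies above those of the other classes, and the shortest fibrillar runs were those of Col24a1 with 216 and Col27a1 with 217 repeats. Runs of at least 5 repeats numbered 2 to 3 in each fibrillar gene and 11 to 27 in each basement membrane gene. In Col1a1, which encodes the α1 chain of type I collagen, a run of 338 repeats spans codons 168 to 1181, and its first 30 codons are shown. In Col4a1, which encodes the α1 chain of type IV collagen, the longest run has 40 repeats and ends at codon 162, and the 30 codons from 148 to 177 show how it breaks. Capitals mark the GGN codons that head a triplet of a run.
Col1a1 codons 168 to 197: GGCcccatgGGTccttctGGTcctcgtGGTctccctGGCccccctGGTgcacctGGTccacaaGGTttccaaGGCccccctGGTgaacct
Col4a1 codons 148 to 177: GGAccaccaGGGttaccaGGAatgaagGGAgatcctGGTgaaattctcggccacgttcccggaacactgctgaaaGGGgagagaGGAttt
Between the capitals of the Col4a1 stretch, 1 break of the pattern separates the end of the longest run from the start of the next.

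**Figure D1:**
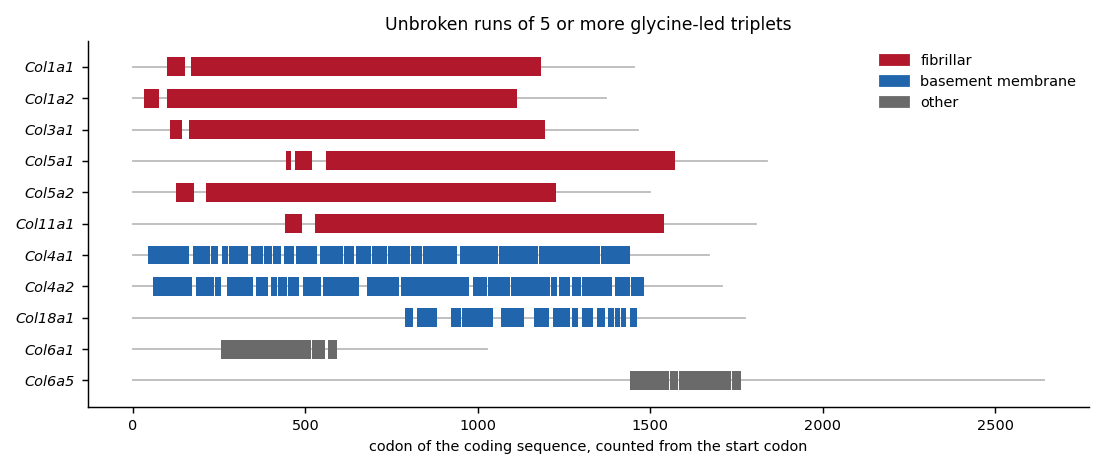
Unbroken runs of at least 5 glycine-led triplets along the coding sequences of 11 collagen genes, with the codon number on the horizontal axis, 1 gene per row and a thin grey line for the whole coding sequence. The fibrillar genes (red) each hold 1 long run, of 338 repeats in Col1a1, whereas Col4a1 and Col4a2 (blue) hold 22 and 24 shorter runs over a similar length.

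The total of reads counted on genes was 28711166 to 34194413 per sample, and 35 of the 44 collagen genes passed edgeR's filter on low counts. ICF replicate 3 stood apart, because 4 divided 89.0% of its counts above 0 (20.3% to 21.5% elsewhere). The pluripotency markers checked against the cell label were all expressed, with Pou5f1, which encodes Oct4, at a mean of 841 CPM in the control and 817 CPM with ICF (n = 3 per group), where CPM are the reads of a gene relative to the TMM-normalized library size. The 9 genes that did not pass the filter were Col24a1 of the fibrillar class, Col4a3, Col4a4 and Col4a6 of the basement membrane class, and Col6a6, Col9a1, Col10a1, Col19a1 and Col28a1 of the others. They had 0 to 8 counts in each sample. Col10a1, the network collagen of hypertrophic cartilage, had 0 counts in all 6 samples. Outside ICF replicate 3, this allows a level of up to 0.0864 to 0.104 CPM by counting error alone (3 counts per sample). In ICF replicate 3, where most counts were multiples of 4, a bound of 3 counts may be too low. Col4a3 and Col4a4, whose chains form the mature type IV network of the kidney glomerulus, had 0 to 2 counts in each sample.

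Basement membrane genes, and type IV above all, held most of the collagen mRNA in both groups. To compare levels between genes, CPM was divided by the length of all exons of a gene in kilobases (CPM per kb). In the control, Col4a1 was at 297 ± 23.3 CPM per kb (SD, n = 3), which is above 99.3% of the 16729 genes tested, and Col4a2, its partner in the common type IV heterotrimer, was at 195 ± 17.2 CPM per kb. Col18a1, a basement membrane collagen whose C-terminal fragment is endostatin, followed at 48 ± 1.67 CPM per kb. No other collagen gene exceeded 3.48 CPM per kb in the control, the level of Col9a2, a chain of the fibril-associated type IX. Of the fibrillar genes, Col1a1 was highest by this measure at 2.33 ± 0.505 CPM per kb, followed by Col11a1 at 2.18 ± 0.177, whose SDs overlap, and by Col5a1 at 1.58 ± 0.161. This order depends on the exon lengths used, which were 6563 bases for Col1a1 and 12744 for Col11a1. In control CPM without division by length, Col11a1 was the highest fibrillar gene at 27.8 ± 2.26, and Col1a1 was at 15.3 ± 3.31. The levels among collagen genes thus ranged from nearly the top of the transcriptome to 0 counts.

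**Figure D2:**
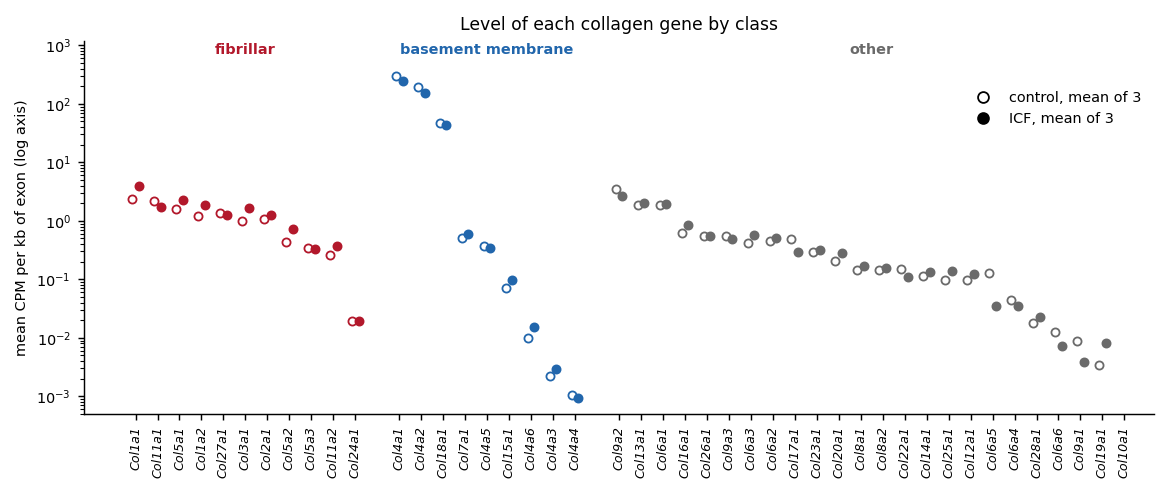
Mean level of each collagen gene in CPM per kb of exon on a log axis, with open circles for the control and filled circles for ICF (means of 3 samples), ordered by level within each class. Col4a1, Col4a2 and Col18a1 stand apart from the other 41 genes, and Col10a1, with 0 counts, has no point.

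Summed over the members of a class, the fibrillar chains stood at 11.8, 13.1 and 10.5 CPM per kb in control replicates 1 to 3 and at 16.3, 15.4 and 14.3 CPM per kb in ICF replicates 1 to 3. Every ICF sample was above every control sample. The basement membrane chains summed to 548, 576 and 499 CPM per kb in the control and to 448, 478 and 391 CPM per kb with ICF, and here every ICF sample was below every control sample. The other chains summed to 11.4, 12.2 and 11.7 CPM per kb in the control and to 12.2, 11.4 and 10.9 CPM per kb with ICF, and the groups overlapped. As a share of all collagen CPM per kb, the fibrillar chains made up 2.08% ± 0.0918 in the control and 3.3% ± 0.215 with ICF, and the basement membrane chains 95.8% ± 0.0988 and 94.2% ± 0.413 (SD, n = 3). The other chains made up 2.1% ± 0.133 and 2.48% ± 0.199, although their mean sum was 11.8 CPM per kb in the control and 11.5 with ICF. A lower basement membrane sum by itself raises the shares of the other classes. These sums carry no test, because they are dominated by a few members. In bulk RNA, fewer cells of a type and less RNA per cell cannot be told apart.

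In edgeR's quasi-likelihood test over all genes, 4 of the 35 collagen genes tested rose with ICF and 1 fell at an adjusted p under 0.05. Among all 16729 genes tested, 3.47% rose and 4.38% fell by the same rule. The 4 that rose were fibrillar (Col1a1, Col3a1, Col5a1 and Col5a2) and the 1 that fell was Col6a5, which passed the filter on low counts through the control samples, where it was higher. Without control replicate 1 or ICF replicate 1 1 gene rose and 0 fell, and the other fits that left out 1 sample gave 2 or 3 that rose and 0 to 2 that fell. With the donor number as a block, 7 collagen genes rose and 7 fell, beside 14.6% of all genes that rose and 15.3% that fell. When the counts of ICF replicate 3 were also divided by 4, a setting chosen after the data were seen, 9 rose and 7 fell (all genes 16.0% and 16.6%). DESeq2 without the block gave 4 that rose and 4 that fell (all genes 5.64% and 6.63%), and edgeR without donor 3 in both groups gave 7 and 7 (all genes 14.6% and 15.6%). The ICF samples lay above all control samples in 10 collagen genes and below them in 7, against 15.6% and 15.7% of all genes tested. The median log2 fold change was 0.14 over the 35 collagen genes and 0.00 over all genes tested. By class it was 0.51 for the 10 fibrillar, -0.14 for the 6 basement membrane and 0.11 for the 19 other genes. The difference between the classes was not tested.

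**Figure D3:**
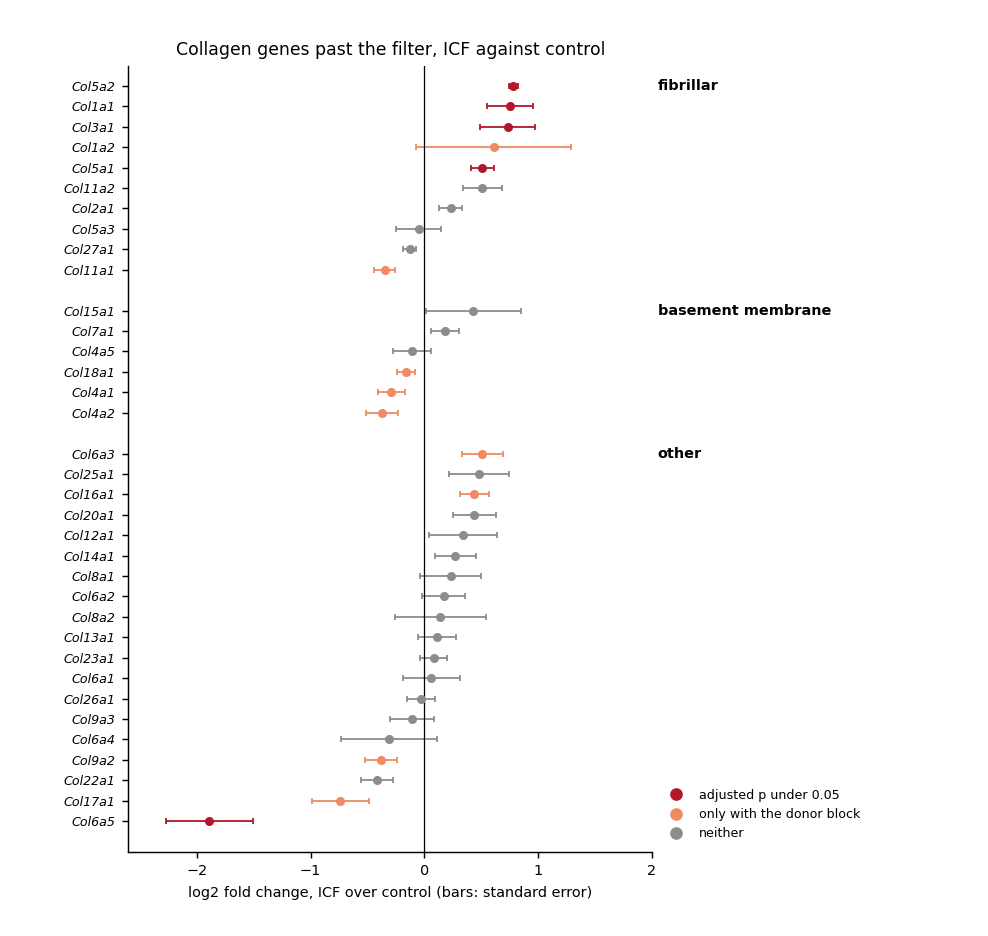
Log2 fold change of ICF over the control for the 35 collagen genes tested (horizontal axis), by class, with bars for the standard error from the spread of log2 CPM between samples and colours for the edgeR calls without and with the donor block. The 4 genes called higher are fibrillar and lie between 0.51 and 0.78, and the type IV genes Col4a1 and Col4a2 lie at -0.29 and -0.37.

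Col1a1 (ENSMUSG00000001506, chr11:94936224-94953042, plus strand, GRCm38) was at 16.1, 18.1 and 11.6 CPM in control replicates 1 to 3 and at 28, 24.7 and 24.2 CPM in ICF replicates 1 to 3. The lowest ICF sample exceeded the highest control sample, and donor 3, the lowest control, gave the largest change. The rise was 1.68-fold (log2 fold change 0.75, SE 0.20, edgeR adjusted p = 0.022, n = 3 per group). The call was lost without control replicate 1 (adjusted p = 0.082), ICF replicate 1 (0.084) or ICF replicate 2 (0.053), while the log2 fold change stayed between 0.58 and 0.89.

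Col3a1 (ENSMUSG00000026043, chr1:45311538-45349706, plus strand) encodes type III collagen, a homotrimer that accompanies type I in loose and vascular connective tissue. The control samples had 9.96, 11.6 and 7.34 CPM and the ICF samples 14.7, 13.9 and 19.5 CPM. The groups did not overlap, and the change ranged over donors 1 to 3 from 0.26 in donor 2 to 1.40 in donor 3 on the log2 scale. Col3a1 rose 1.66-fold (log2 fold change 0.73, SE 0.24, edgeR adjusted p = 0.048, n = 3 per group). This call was lost when any 1 of the 6 samples was left out, with an adjusted p of 0.067 to 0.15 and a log2 fold change of 0.57 to 0.89. It was also lost in DESeq2 with the donor block (adjusted p = 0.12). Without donor 3 in both groups the log2 fold change was 0.40 (adjusted p = 0.004).

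Type V collagen sits inside the type I fibril and limits its diameter, and both of its main chains rose. Col5a1 (ENSMUSG00000026837, chr2:27886425-28039514, plus strand) was at 11.8, 14.5 and 13.8 CPM in the control and at 20.1, 18.2 and 19.1 CPM with ICF. Col5a2 (ENSMUSG00000026042, chr1:45374321-45503282, minus strand) was at 4.07, 4.28 and 4 CPM in the control and at 7.17, 6.78 and 7.21 CPM with ICF. Neither gene had an ICF sample within the control range, and in Col5a2 the samples of each group lay close together. Col5a1 rose 1.43-fold (log2 fold change 0.51, SE 0.10, edgeR adjusted p = 0.019, n = 3 per group) and Col5a2 1.71-fold (log2 fold change 0.78, SE 0.04, adjusted p = 0.0072). Col5a2 kept its call in each of the 6 fits that left out 1 sample. Col5a1 lost it without control replicate 1 (adjusted p = 0.091), control replicate 2 (0.061) or ICF replicate 1 (0.086). The third chain, Col5a3, was at 2.34 ± 0.424 CPM in the control and 2.27 ± 0.428 CPM with ICF (SD, n = 3), with overlapping groups and an edgeR adjusted p of 0.92.

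Col1a2 (ENSMUSG00000029661, chr6:4504814-4541544, plus strand) encodes the α2 chain that joins α1 chains in the type I heterotrimer. It was at 18.1, 20.4 and 6.75 CPM in control replicates 1 to 3 and at 30.8, 26.9 and 11 CPM in ICF replicates 1 to 3. Donor 3 was low in both groups, so that its ICF sample lay below control replicates 1 and 2 and the groups overlapped. The log2 fold change was 0.61 (SE 0.68) with an edgeR adjusted p of 0.42 (n = 3 per group). With the donor number as a block, the adjusted p was 1e-06, and without donor 3 in both groups it was 2.1e-05 at a log2 fold change of 0.58. Within the donors, the log2 ratio of ICF to control was 0.76, 0.40 and 0.71. The ratio of Col1a1 to Col1a2 in CPM per kb came to 1.68, 1.68 and 3.26 in control replicates 1 to 3 and to 1.72, 1.74 and 4.14 in ICF replicates 1 to 3. Donor 3 thus differed from the other donors in the balance of the type I chains in both groups, and its Col1a1 was not low to the same extent. The size of the ratio, unlike the contrast between donors, depends on the exon lengths used (6563 bases for Col1a1 and 12426 for Col1a2). In CPM the control means were 15.3 for Col1a1 and 15.1 for Col1a2.

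**Figure D4:**
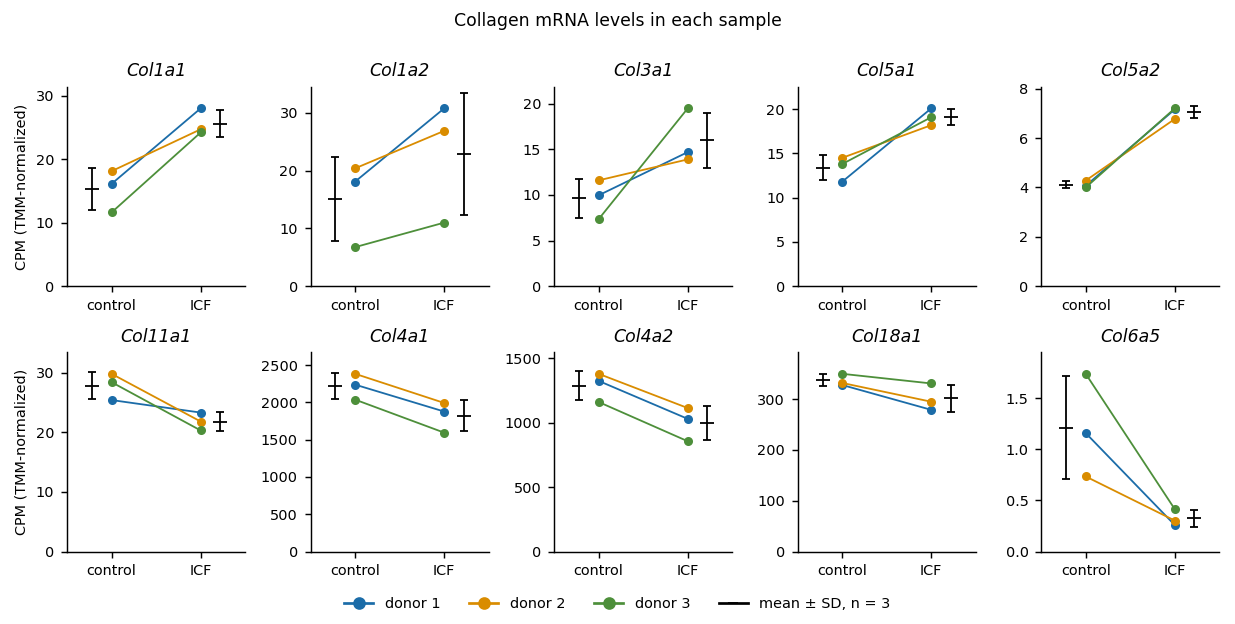
TMM-normalized CPM of 10 collagen genes in each sample (vertical axes, each from 0), with lines joining the control and ICF samples of 1 donor and black marks for the mean and SD of 3 samples. Col1a1, Col3a1, Col5a1 and Col5a2 rise in all 3 donors, Col4a1 and Col4a2 are lower with ICF in all 3, and donor 3 is low for Col1a2 in both groups.

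Of the remaining fibrillar genes, Col11a1 (ENSMUSG00000027966, chr3:114030540-114220718, plus strand), a minor chain of cartilage fibrils, went the other way. The control samples had 25.4, 29.8 and 28.4 CPM and the ICF samples 23.3, 21.8 and 20.3 CPM. All ICF samples were below all control samples. The log2 fold change was -0.35 (SE 0.09, edgeR adjusted p = 0.051, n = 3 per group), and with the donor block the gene fell at an adjusted p of 0.00073. Its partner Col11a2 was at 1.78 ± 0.0929 CPM in the control and 2.54 ± 0.524 CPM with ICF (SD, n = 3), with every ICF sample higher and an edgeR adjusted p of 0.15, which was 0.017 without donor 3 in both groups. Col2a1, the main collagen of cartilage, was at 10 ± 0.495 and 11.8 ± 1.26 CPM, also without overlap, at an adjusted p of 0.24, and of 0.027 without donor 3. Col27a1 was at 17.9 ± 1.17 CPM in the control and 16.4 ± 0.557 CPM with ICF, and its groups overlapped (edgeR adjusted p = 0.4). In all, 7 of the 10 fibrillar genes tested were higher with ICF and 3 were lower.

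No basement membrane gene passed the threshold in edgeR without the block. At an unadjusted p under 0.05 in edgeR, 2 of the 6 tested were lower, beside 2201 of all 16729 genes tested. DESeq2 without the block called 2 lower (all genes 6.63%). With the donor block 3 fell and 0 rose (all genes 15.3% and 14.6%). Col4a1 (ENSMUSG00000031502, chr8:11198423-11312826, minus strand) was at 2238, 2383 and 2037 CPM in control replicates 1 to 3 and at 1877, 1992 and 1594 CPM in ICF replicates 1 to 3. Col4a2 (ENSMUSG00000031503, chr8:11312805-11449287, plus strand) was at 1326, 1381 and 1162 CPM in the control and at 1031, 1115 and 857 CPM with ICF. In both genes all ICF samples were below all control samples, and donor 3 was the lowest of its group. The log2 fold change was -0.29 for Col4a1 (SE 0.12, edgeR adjusted p = 0.096, n = 3 per group) and -0.37 for Col4a2 (SE 0.14, adjusted p = 0.067). With the donor block the adjusted p was 9e-06 and 1.7e-07, and DESeq2 without the block gave 0.038 and 0.012. Leaving out control replicate 3 brought Col4a2 past the threshold in edgeR without the block (log2 fold change -0.44, adjusted p = 0.037).

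These are opposite-strand neighbours on chromosome 8, and their annotated start sites, at 11312826 on the minus strand and 11312805 on the plus strand, place 22 bases in both genes. Their levels kept a narrow ratio. Col4a1 over Col4a2 in CPM per kb came to 1.5, 1.53 and 1.55 in control replicates 1 to 3 and to 1.61, 1.58 and 1.65 in ICF replicates 1 to 3, so that the ratio was higher in every ICF sample. Control samples had 0.00819, 0.00863 and 0.00649 CPM per kb of Col1a1 for each CPM per kb of Col4a1, and ICF samples had 0.017, 0.0141 and 0.0172, without overlap.

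Col18a1 (ENSMUSG00000001435, chr10:77052178-77166548, minus strand) was at 328, 332 and 350 CPM in the control and at 279, 295 and 331 CPM with ICF. The groups overlapped through ICF replicate 3, although each donor was lower with ICF. The log2 fold change was -0.16 (SE 0.08, edgeR adjusted p = 0.21, n = 3 per group), and with the donor block the adjusted p was 0.011. Col4a5, a type IV chain on the X chromosome, was at 2.45 ± 0.143 CPM in the control and 2.26 ± 0.488 CPM with ICF (SD, n = 3). Col7a1, which builds the anchoring fibrils under the epidermis, was at 5.32 ± 0.396 and 6.04 ± 0.725 CPM, and Col15a1 was at 0.457 ± 0.159 and 0.62 ± 0.23 CPM. All 3 had overlapping groups and were called in neither fit. Thus the lower class sum with ICF rested on Col4a1, Col4a2 and Col18a1.

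Among the 19 other collagen genes tested, Col6a5 (ENSMUSG00000091345, chr9:105856078-105960643, minus strand), a chain of the beaded-filament type VI, was lower with ICF. It was at 1.16, 0.735 and 1.74 CPM in the control and at 0.259, 0.303 and 0.414 CPM with ICF. These levels rest on 34, 23 and 50 counts in the control and 9, 10 and 12 counts with ICF. The gene passed the filter on low counts through the control, the group in which it is high, since its ICF counts lie near the minimum of 10. All ICF samples were lower, and the difference was 3.72-fold (log2 fold change -1.89, SE 0.38, edgeR adjusted p = 0.024, n = 3 per group). With a filter of at least 1 count in any sample, which does not favour either group, the edgeR adjusted p was 0.0011. That filter took in 29738 genes and also lowered the adjusted p of Col1a1, from 0.022 to 8.9e-05. The smaller value is therefore not separate support for Col6a5. The call was lost without control replicate 1 (adjusted p = 0.094), ICF replicate 1 (0.099) or ICF replicate 2 (0.081), and the gene could not be tested with a filter of at least 10 counts in every sample. Of its possible 75-base reads, 2.95% also occur in Col6a6, which had 0 to 8 counts per sample.

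Of the other type VI chains, none was called lower in edgeR without or with the block, and the chains of the common type VI filament had these levels. Col6a3 (ENSMUSG00000048126, chr1:90765923-90843971, minus strand), the long chain, was at 5.2, 5.3 and 4.21 CPM in the control and at 7.05, 5.72 and 8.18 CPM with ICF. Its groups did not overlap, and it rose in edgeR with the donor block, but not in DESeq2 with the block, where the adjusted p was 0.081 (log2 fold change 0.51, SE 0.18, edgeR adjusted p = 0.099 without and 0.0065 with the block, n = 3 per group). Without donor 3 in both groups its log2 fold change was 0.28 (adjusted p = 0.11). Col6a1 (ENSMUSG00000001119, chr10:76708792-76726168, minus strand) was at 8.66, 8.82 and 7.34 CPM in the control and at 11.3, 7.96 and 6.52 CPM with ICF, and the groups overlapped (log2 fold change 0.06, SE 0.25, edgeR adjusted p = 0.88). Col6a2 was at 3.84 ± 0.606 CPM in the control and 4.31 ± 0.673 CPM with ICF, and Col6a4 was at 0.383 ± 0.0841 and 0.301 ± 0.143 CPM (SD, n = 3).

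Fibril-associated collagens decorate fibril surfaces and carry interrupted helices. Col16a1 (ENSMUSG00000040690, chr4:130047840-130099283, plus strand) was at 4.62, 4.47 and 3.58 CPM in the control and at 5.73, 5.3 and 6.21 CPM with ICF. Col9a2 (ENSMUSG00000028626, chr4:121039385-121055322, plus strand) was at 9.89, 12.5 and 9.98 CPM in the control and at 8.49, 9.02 and 7.32 CPM with ICF. Neither gene had overlapping groups, and they moved in opposite directions. Without the block neither was called (log2 fold change 0.44, SE 0.13, edgeR adjusted p = 0.1 for Col16a1, and -0.38, SE 0.14, 0.12 for Col9a2, n = 3 per group), whereas with the donor block Col16a1 rose (0.017) and Col9a2 fell (0.0058). In DESeq2 with the block neither passed (0.14 and 0.067). Without donor 3 in both groups the log2 fold change of Col16a1 was 0.28 (adjusted p = 0.11). Of the 7 fibril-associated genes tested, 1 rose and 1 fell with the block. Col12a1, Col14a1, Col20a1, Col22a1 and Col9a3 had log2 fold changes of 0.34, 0.27, 0.44, -0.42 and -0.11 and were called in neither fit.

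Of the transmembrane collagens, Col17a1 (ENSMUSG00000025064, chr19:47646344-47692094, minus strand), the hemidesmosome collagen of basal epithelial cells, was at 2.43, 2.78 and 3.69 CPM in the control and at 1.7, 1.42 and 2.21 CPM with ICF. The ICF samples were all lower. The log2 fold change was -0.74 (SE 0.25, edgeR adjusted p = 0.086, n = 3 per group), and Col17a1 fell with the donor block (0.0037) and without ICF replicate 3 (log2 fold change -0.91, adjusted p = 0.041). In DESeq2 with the block it did not pass (adjusted p = 0.066). Col13a1 (ENSMUSG00000058806, chr10:61838236-61979108, minus strand) was at 7.05, 8.27 and 10.7 CPM in the control and at 9.07, 9.59 and 9.39 CPM with ICF. Its groups overlapped, and its log2 fold change of 0.11 (SE 0.17, edgeR adjusted p = 0.7) was within the spread. Col23a1 and Col25a1 had log2 fold changes of 0.08 and 0.48, and the short-chain network genes Col8a1 and Col8a2 had 0.23 and 0.14. These genes and Col26a1, at -0.03, were called in neither fit.

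Promoter sequences are shown for the called genes that RefSeq's GRCm38.p6 table covers and whose window holds no annotated exon. The 250 bases before the start were searched on both strands for CCAAT, for TATAAA and for GGGCGG, the core of Sp1-type sites, none of which contains another. Windows were given for 35 of the 44 collagen genes. GGGCGG occurred in 21 of these 35 (60%) and in 32.7% of all 32851 windows of this length, CCAAT in 13 (37.1%) and in 33.8%, and TATAAA in 5 (14.3%) and in 12.4%. The collagen shares count genes with a match in any of their windows, while the background counts single windows. The background spans 27025 gene symbols and was not matched to the collagens by gene type, so the shares are not like for like. Capitals mark the matches, which describe letters and not binding, and the 250 bases are written 5′ to 3′ on the strand of the gene.
Col3a1, chr1:45311288-45311537, plus strand: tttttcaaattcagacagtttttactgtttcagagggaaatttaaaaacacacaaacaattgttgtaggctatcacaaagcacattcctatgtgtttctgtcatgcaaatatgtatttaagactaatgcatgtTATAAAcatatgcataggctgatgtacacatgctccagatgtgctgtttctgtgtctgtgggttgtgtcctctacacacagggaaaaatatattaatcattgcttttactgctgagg
Col5a1, chr2:27886175-27886424, plus strand: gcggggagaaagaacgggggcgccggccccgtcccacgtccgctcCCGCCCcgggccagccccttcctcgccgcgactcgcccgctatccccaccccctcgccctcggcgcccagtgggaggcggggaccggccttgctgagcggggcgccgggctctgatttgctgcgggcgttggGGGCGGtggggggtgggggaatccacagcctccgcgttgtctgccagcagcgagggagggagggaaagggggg
Col6a5, chr9:105960644-105960893, minus strand: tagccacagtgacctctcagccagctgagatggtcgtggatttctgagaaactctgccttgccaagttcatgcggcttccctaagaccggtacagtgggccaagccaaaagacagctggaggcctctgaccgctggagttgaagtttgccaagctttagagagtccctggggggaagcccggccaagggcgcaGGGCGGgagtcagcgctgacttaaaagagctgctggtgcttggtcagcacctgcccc
The window of Col3a1 held TATAAA once and had a GC content of 35.2%, whereas that of Col5a1 had 76.4% GC and 2 matches to GGGCGG, counting both strands. The Col6a5 window, of the gene called lower, held GGGCGG as well, at 58.8% GC. The windows of Col3a1 and Col5a1, both of which rose, shared none of the 3 searched motifs.

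The enzymes, chaperones and receptors that act on collagen were examined as a list of 52 genes, of which 46 were tested. In edgeR without the block, 1 rose and 4 fell (all genes 3.47% and 4.38%), and with the donor block 8 rose and 12 fell (all genes 14.6% and 15.3%). The median log2 fold change was 0.00, as over all genes. Of the 14 genes of prolyl and lysyl hydroxylation, which modify the chains in the endoplasmic reticulum, 3 fell, and with the donor block 1 rose (P4ha3) and 7 fell. P4ha1, a catalytic subunit of prolyl 4-hydroxylase, was at 369, 376 and 300 CPM in the control and at 188, 194 and 183 CPM with ICF, without overlap, and fell 1.85-fold (log2 fold change -0.89, SE 0.11, edgeR adjusted p = 0.001, n = 3 per group). P4ha2, a further catalytic subunit, was at 185, 187 and 152 CPM in the control and at 136, 143 and 116 CPM with ICF (log2 fold change -0.40, SE 0.13, adjusted p = 0.048). Its call was lost without control replicate 1 or 2 or any 1 ICF replicate (adjusted p 0.069 to 0.2). Plod2, which hydroxylates telopeptide lysines ahead of cross-linking, was at 399, 424 and 379 CPM in the control and at 265, 259 and 304 CPM with ICF, and fell 1.45-fold (log2 fold change -0.54, SE 0.09, adjusted p = 0.0054). P4hb, the shared β subunit, was at 1040 ± 55.1 CPM in the control and 944 ± 55.4 CPM with ICF (SD, n = 3), with an adjusted p of 0.24 without and 0.023 with the block, and of 0.039 without donor 3 in both groups.

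With the donor block, 1 of the 5 cross-linking oxidases rose (Loxl3) and 1 fell, and without it 1 fell. Loxl2, an oxidase that acts on type IV collagen, was at 110, 117 and 80.8 CPM in the control and at 53.3, 58.2 and 49.4 CPM with ICF. All ICF samples were lower, and the fall was 1.91-fold (log2 fold change -0.93, SE 0.18, edgeR adjusted p = 0.0048, n = 3 per group). Lox itself was at 3.35, 4.6 and 1.01 CPM in the control and at 3.48, 3.09 and 5.8 CPM with ICF, and the groups overlapped (log2 fold change 0.45, edgeR adjusted p = 0.58). Its log2 fold change was -0.28 without donor 3 in both groups, so the sign rested on that donor. Of the 8 genes of folding and export, edgeR and DESeq2 without the block called 0, 1 was higher at an unadjusted p under 0.05 in edgeR, and 1 rose with the block. At that unadjusted p, 2076 of all 16729 genes tested were higher and 2201 were lower. Serpinh1, the collagen chaperone Hsp47, was at a mean of 1206 CPM in the control and 1231 CPM with ICF. Of the 7 tested genes of propeptide cleavage, edgeR without the block called 0, with 1 higher and 2 lower at an unadjusted p under 0.05, DESeq2 called 1 lower, and 1 rose and 2 fell with the block. Of the 7 tested genes of degradation and uptake, edgeR and DESeq2 without the block called 0, with 1 higher at an unadjusted p under 0.05, and 2 rose and 1 fell with the block. Of the 5 receptor genes tested, 1 rose without the block, and 2 rose and 1 fell with it. Itga1, the α subunit of a collagen-binding integrin, was at 2.36, 2.78 and 2.02 CPM in the control and at 4, 4.09 and 5.25 CPM with ICF, without overlap. It rose 1.86-fold (log2 fold change 0.89, SE 0.18, edgeR adjusted p = 0.024, n = 3 per group), and its call was lost without control replicate 1 or 2 or ICF replicate 1 or 2 (adjusted p 0.055 to 0.11).

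**Figure D5:**
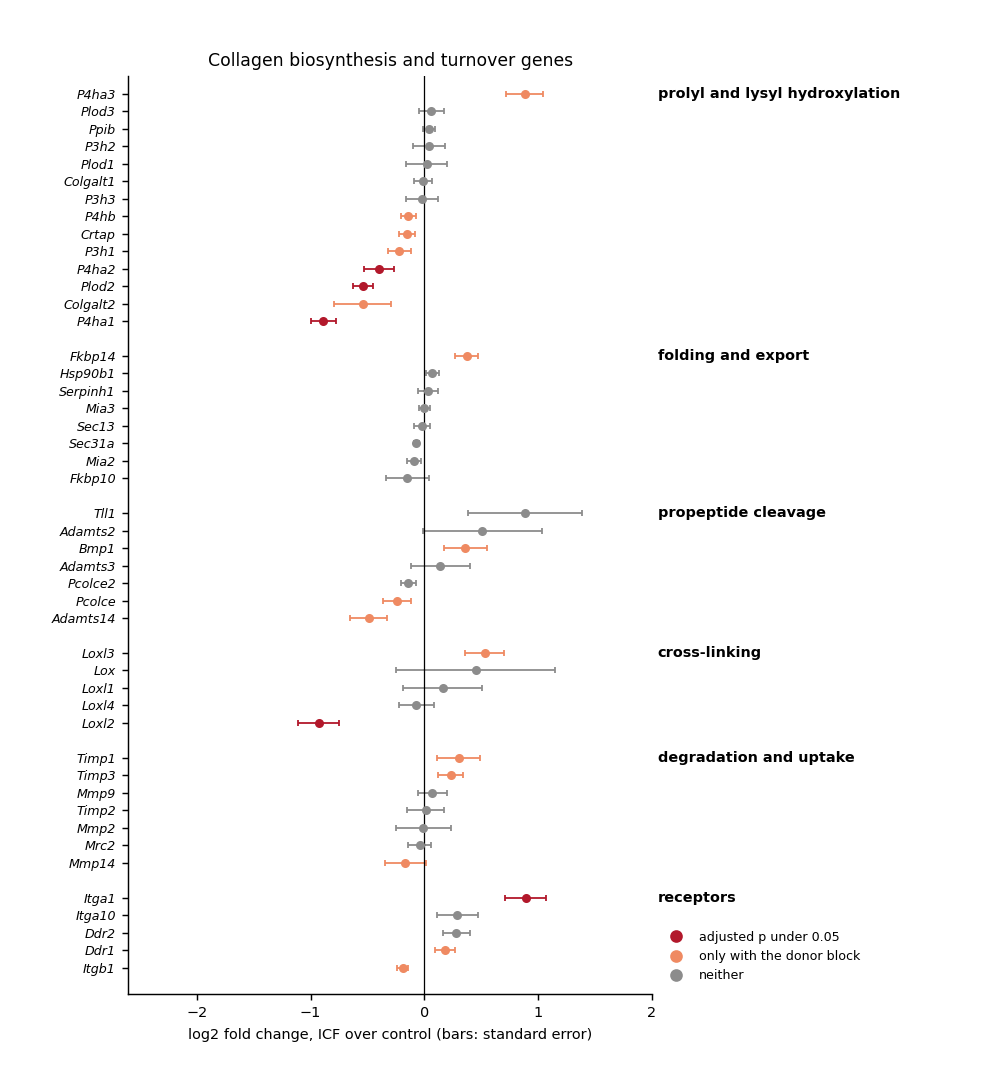
Log2 fold change of ICF over the control for the 46 tested genes of collagen biosynthesis and turnover (horizontal axis), by step, with bars for the standard error from the spread of log2 CPM and colours for the edgeR calls without and with the donor block. P4ha1, Plod2, P4ha2 and Loxl2 lie to the left of 0, between -0.93 and -0.40, and Itga1 lies at 0.89.

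Markers of cell types that could carry these collagens were read beside the results, and their calls stand beside 3.47% of all genes that rose and 4.38% that fell without the donor block, and 14.6% and 15.3% with it. The 14 fibroblast and mesenchyme markers, collagens left out, summed to 414 to 460 CPM in the control and 453 to 471 CPM with ICF, ranges that overlap. Pdgfra and Vim led this sum, at means of 178 and 163 CPM in the control and 182 and 180 CPM with ICF. Thy1 (5.45 and 5.7), Twist2 (1.33 and 2.39) and Postn (0.284 and 0.405) add little to it. Of the 13 tested, 11 were higher with ICF and 1 rose, Twist2, a mesenchymal transcription factor (log2 fold change 0.85, SE 0.18, edgeR adjusted p = 0.047, n = 3 per group, lost in each of the 6 fits without 1 sample). With the donor block 3 rose (Twist1, Twist2 and Acta2) and Fbln1 fell. Without donor 3 in both groups, Twist2 had a log2 fold change of 0.69 (edgeR adjusted p = 0.017). Twist1 then had 0.24 (0.14) and Acta2 -0.07 (0.66). Acta2 was at 7.51, 7.69 and 21.4 CPM in ICF replicates 1 to 3, so its rise rested on replicate 3. Lum, which encodes lumican, did not pass the filter, and no marker of the list was at 0 counts in all samples. The 12 primitive and parietal endoderm markers summed to 7565 to 7845 CPM in the control and 6762 to 7267 CPM with ICF, without overlap. This sum led with Sparc, a type IV collagen-binding protein. Of the 12 markers, 7 were higher with ICF and 5 were lower, so most did not share the lower sum. Mean CPM in the control and with ICF was 2511 and 2239 for Sparc, 1758 and 1430 for Lama1, and 1432 and 1181 for Lamb1. Cubn (980 and 1085) and Dab2 (610 and 725) were higher with ICF, with overlapping groups. Lama1 and Lamb1, chains of the basement membrane laminin, had log2 fold changes of -0.30 and -0.28 and were not called in edgeR without the block (adjusted p = 0.097 and 0.13) and fell with it (5.4e-06 and 1.6e-05). Gata4 and Gata6, which specify endoderm, were at log2 fold changes of 0.03 and 0.19, and Gata6 rose with the block. Of the 12 markers, 1 fell without the block (Sox17, a call that held in 1 of the 6 fits without 1 sample), and 3 rose and 4 fell with it. The part of either cell type in the collagen differences was not tested. The 8 neural markers summed to 122 to 132 CPM in the control and 119 to 129 CPM with ICF, the 6 endothelial markers to 87.9 to 104 and 90.7 to 125 CPM, and the 6 cartilage markers, of which Matn3 fell (held in 2 of those 6 fits), to 17.6 to 21.8 and 16.4 to 20.3 CPM. The 10 pluripotency markers summed to 3846 to 4656 CPM in the control and 3479 to 3928 CPM with ICF, and 9 of them were lower. Of these, Tdgf1 fell without the block, and with it 4 fell (Tdgf1, Dppa5a, Utf1 and Klf4) and 0 rose. With the block, 3 neural markers rose and 1 fell, and 1 endothelial marker rose. Of the neural markers that rose, Dcx passed the filter on low counts through the ICF samples, where it was higher (6 to 10 counts in the control and 16 to 24 with ICF).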

How the data were processed

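mRNA was measured in 6 samples, 3 with ICF and 3 unloaded, grouped by the sample titles. Per the methods and the submitters' processing notes, strand-specific libraries were sequenced as single reads of 75 bases, and the authors demultiplexed the reads with bcl2fastq 2.19, filtered them with Trimmomatic and mapped them with HISAT2. The authors deposited whole-number counts per gene from HTSeq, with no normalization. The other versions, the annotation and the strand setting are not given in the sources used here. The notes name GRCm38 and also the human build hg38. HTSeq leaves out reads that align to several places, and its row for them held 29.5% to 31.3% of the sum of all rows. Together, the rows that name no gene held 38.1% to 40.3% of that sum and stayed out of library sizes. If a read was entered once per alignment, these are not shares of reads.

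Genes were named through GENCODE M21 (GRCm38), which held 50462 of the 50686 identifiers. Counts were tested with edgeR 4.0.16 in R 4.3.3 (TMM, filterByExpr by group with a minimum count of 10, glmQLFit and glmQLFTest, Benjamini-Hochberg over the 16729 genes tested, threshold 0.05), which covers each adjusted p in the text unless DESeq2 is named. The study's own test was DESeq2, an alternative here (1.42.0). Group means and SDs were taken over TMM-normalized CPM, and standard errors come from the spread of log2 CPM (prior count 2) and not from the fit. Log2 ratios within a donor used a pseudocount of 0.05 CPM. Samples were paired by the donor named in their titles. After centring each group, the control and ICF samples of 1 donor had r of 0.15, 0.2 and 0.38 across genes. Those of different donors had -0.34 to 0.26, and control 1 correlated more with ICF 2 (0.26) than with ICF 1, so the check sets donor 3 apart but does not tell donors 1 and 2 apart. Because the titles name the donors, donor as a block was fitted as an alternative and is given where it changes a call. Other alternatives were RLE size factors, 2 filters on low counts, the counts of ICF replicate 3 divided by 4 (with the block, this was added after the data were seen), donor 3 left out, and each sample left out. The fit was tested on simulated counts, which held no donor effect and no steps of 4. Changes were planted only in genes above the level of Col6a5. That test therefore cannot speak for Col6a5, for donor 3 or for ICF replicate 3. At 28711166 to 34194413 counts per sample, Col6a5 rests on 9 to 50 counts, and the floor of 3 counts covers counting error only. That floor may be too low for ICF replicate 3.

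The members and lists were chosen with earlier results of these data known. Described in full were the collagens called without the block, those called only with it whose groups do not overlap, the 3 highest per kb of each class, and the called genes of the biosynthesis list. Shared reads were 75-base stretches of a transcript found in another gene, on either strand. They made up 0% of most collagen genes, 1.22% of Col3a1 (in Gm47302) and 0.84% of Col5a1 (in Gm13372). Promoters are from RefSeq (GRCm38.p6).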

Additional observations from a re-analysis of the deposited data

How the results depend on the processing

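Over all genes, the number higher and lower with ICF was 943 and 1109 with DESeq2, 2445 and 2561 with the replicate block, 1457 and 1662 with the replicate block in DESeq2, 2466 and 2627 without donor 3, and 2681 and 2778 with the replicate block and ICF replicate 3 divided by 4. It was 559 and 734 with RLE size factors, and 667 and 875 with ICF replicate 3 divided by 4 without the block. With at least 1 count in any sample it was 841 and 1019 of 29738 genes. With at least 10 counts in every sample it was 593 and 743 of 15390 genes. It ranged from 85 to 724 and from 215 to 928 when 1 sample was left out. For the collagen chains, 7 rose and 7 fell with the replicate block (fibrillar 5 and 1, basement membrane 0 and 3, other 2 and 3), 7 and 7 without donor 3 (fibrillar 7 and 1, basement membrane 0 and 3, other 0 and 3), and 9 and 7 with the replicate block and ICF replicate 3 divided by 4 (fibrillar 7 and 1, basement membrane 0 and 3, other 2 and 3). DESeq2 gave 4 and 4 (fibrillar 4 and 1, basement membrane 0 and 2, other 0 and 1), and the replicate block in DESeq2 gave 4 and 5 (fibrillar 4 and 1, basement membrane 0 and 3, other 0 and 1). RLE size factors gave 4 and 2 (fibrillar 1 lower), at least 1 count in any sample 4 and 5 (fibrillar 1, basement membrane 2 and other 2 lower), at least 10 counts in every sample 4 and 0 (other 0 lower, since Col6a5 was not tested), and ICF replicate 3 divided by 4 without the block 4 and 3 (fibrillar 1 and other 2 lower). Leaving out 1 sample gave 1 to 3 collagen genes higher, fibrillar in each case, and 0 to 2 lower (basement membrane 0 to 1, other 0 to 2, fibrillar 0). Tests with fewer samples have fewer degrees of freedom.

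Of the biosynthesis list, 8 rose and 12 fell with the replicate block, also with ICF replicate 3 divided by 4, 4 and 8 with the replicate block in DESeq2, 5 and 9 without donor 3, and 2 rose with at least 10 counts in every sample. Leaving out 1 sample gave 0 to 2 and 3 to 4. Of the cell type markers, 10 and 11 passed with the replicate block, 4 and 11 with the replicate block in DESeq2, 11 and 13 with the replicate block and ICF replicate 3 divided by 4, 6 and 13 without donor 3, 4 and 5 with DESeq2, 3 and 6 with at least 1 count in any sample, and 2 rose with ICF replicate 3 divided by 4 alone. Leaving out 1 sample gave 0 to 1 and 1 to 4.

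As sums of CPM in place of CPM per kb, the fibrillar share of collagen was 2.91% in the control and 4.37% with ICF, the basement membrane share 95.6% and 93.7%, and the other share 1.53% and 1.91%. Without the highest member of each class, these shares were 3.62% and 5.31%, 93.2% and 90.6%, and 3.19% and 4.11%. The fibrillar share was higher with ICF under each of these definitions, and so was the other share. Of the genes described in full, the sign turned for Col13a1 without control replicate 1 (log2 fold change -0.02, range -0.02 to 0.29 over the samples left out) and for Col6a1 without control replicate 3 (-0.02) or ICF replicate 1 (-0.18, range -0.18 to 0.23), none of them called. The replicate block in edgeR ended no call of the collagen, biosynthesis or marker genes. Apart from the number of samples and the filters, the cause of these differences was not tested. Low genes such as Col6a5 are limited by counts of 9 to 50 per sample, and ICF replicate 3 resolves its low counts in steps of 4.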
